A study of Mus musculus with 6 samples.

Results

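The genes described here encode the proteasome, the ubiquitin-conjugating enzymes and the ubiquitin-specific proteases. They were taken by symbol: every gene whose single annotated symbol begins with Psma, Psmb, Psmc, Psmd or Psme, with Ube2, or with Usp followed by a digit. The rule found 94 of the 10698 genes on the array, of which 42 were proteasome genes, 25 Ube2 genes and 27 Usp genes. A symbol rule also takes in a few genes of other kinds, namely the pseudogene Psmb5-ps, the recombination factor gene Psmc3ip, Ube2cbp, whose product resembles a ubiquitin ligase, and the opposite-strand transcript Usp46os2.

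RNA came from RAW 264.7 cells, an established mouse macrophage line, either left untreated or given lipopolysaccharide (LPS, 100 ng/ml, a bacterial cell wall component) together with LPS-binding protein (LBP, 100 pM) for 1 h. Both RNAs were hybridised on each of 6 two-colour arrays, with treated RNA in Cy5 on 3 arrays and in Cy3 on the other 3, numbered as sets 1 to 3 in each orientation. Whether each set is a separate culture is not stated in the labels. The p-values therefore reflect the spread among these arrays, mostly as averages of the arrays sharing a set number, and nothing wider. That spread may be technical. A single cell line at a single time stands for the macrophage here.

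Ubiquitin is passed from an activating enzyme to a conjugating enzyme (E2, the Ube2 genes) and then, with a ligase, onto a target protein. Chains of ubiquitin send many targets to the proteasome, a barrel of alpha and beta rings (the 20S core) capped by a regulatory particle (19S) that recognises, unfolds and feeds in the substrate. Ubiquitin-specific proteases (Usp) remove ubiquitin again. In macrophages this system degrades the inhibitors that hold back NF-kappaB after LPS, builds the signalling chains of the Toll-like receptor pathway, and produces the peptides shown on class I molecules.

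Each value below is taken as a log2 ratio of treated over untreated RNA, so 1 is a doubling and 0 is no difference. Means are given with the SD over 3 set averages, in each of which the array of either orientation counts equally. Intervals are 95% intervals from limma, and a gene is said to have risen or fallen only at a Benjamini-Hochberg adjusted p under 0.05 over all 8331 genes tested. The sign assumes deposited ratios of Cy5 over Cy3, a reading taken from the labels, which use the word test for Cy5 and control for Cy3. Under the opposite reading all signs reverse. With Cy5 as numerator, the inflammatory cytokine genes Tnf (2.44 ± 0.19) and Il1b (2.54 ± 0.16) and the immediate early gene Egr1 (5.13 ± 0.16) rose, each with the same sign on all 6 arrays. The table holds ratios and no levels, so the abundance of a transcript, and of the macrophage markers, could not be read from it. Of 8 macrophage marker symbols listed, which include Adgre1 and its older symbol Emr1, 6 had a ratio on all arrays, with means from -0.21 to 0.55 and 2 called. So did 3 of 5 lymphocyte markers (-0.19 to 0.20, 1 called) and 1 of 5 fibroblast and epithelial markers (Epcam, -0.06), and their part in the results was not tested.

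A ratio on all 6 arrays was available for 81 of the 94 genes, and these were tested. Of them 4 rose and 4 fell, or 9.88%, where 13.2% of all genes tested were called (6.96% rose and 6.21% fell). The proteasome genes had 1 call among 35 (2.86%), the Ube2 genes 4 among 23 (17.4%) and the Usp genes 3 among 23 (13.0%). The called changes were small. None of the 81 means passed 0.5 in size, which 2.95% of all genes did, and the highest and lowest were Ube2g2 at 0.38 and Ube2d3 at -0.39, a 1.30-fold and a 1.31-fold difference. The Ube2g2 mean joins probes that disagreed, at 0.69 and 0.06. The median size of the mean was 0.042 for proteasome genes, 0.053 for Ube2 genes and 0.082 for Usp genes, beside 0.069 for all genes.

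**Figure D1:**
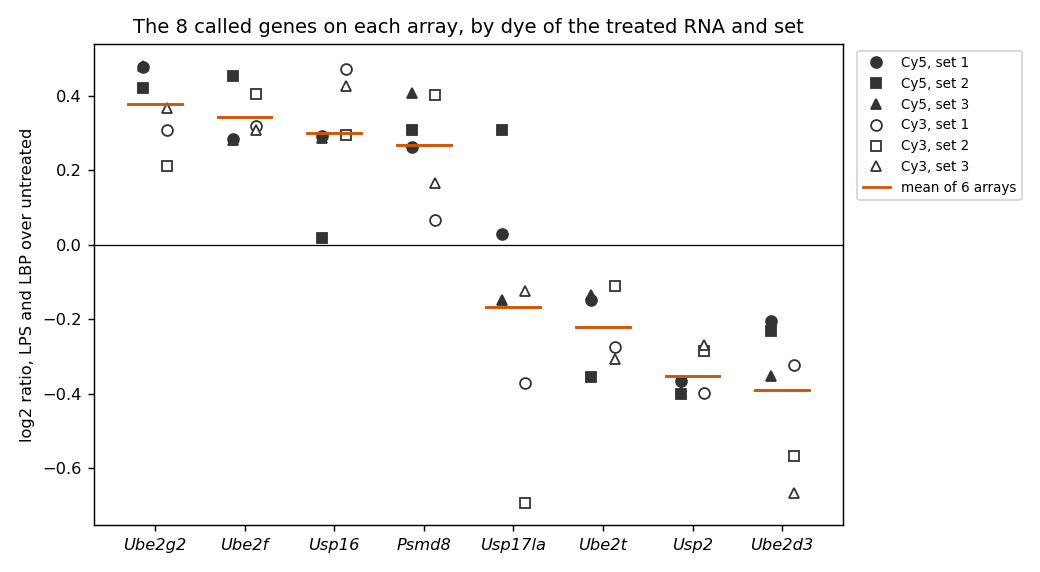
Log2 ratio of treated over untreated RNA (vertical axis) on each of the 6 arrays for the 8 genes that were called, with filled symbols for treated RNA in Cy5, open symbols for Cy3, symbol shape for the set and a bar for the mean. For 7 of the 8 genes all 6 arrays lie on one side of 0, whereas Usp17la has 2 arrays above and 4 below it.

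Promoter sequence from RefSeq (GRCm38.p6, 250 bases before to 50 after each annotated start) was available for 75 of the 94 genes and for 7 of the 8 that were called, all but Ube2g2. Stretches of 3 called genes are printed to show what the search for the NF-kappaB motif picks up in a gene that rose (Psmd8) and in 2 that fell (Ube2d3, Usp2). Each is written 5′ to 3′ on the gene's strand and ends before the annotated start, and the capitals mark the match, which may be on either strand. The stretches lie at chr7:29180765-29180824 (minus strand), chr3:135438086-135438145 (plus strand) and chr9:44084782-44084841 (plus strand).
Psmd8: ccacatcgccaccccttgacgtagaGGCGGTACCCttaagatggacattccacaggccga
Ube2d3: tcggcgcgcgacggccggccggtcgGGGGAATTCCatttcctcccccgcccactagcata
Usp2: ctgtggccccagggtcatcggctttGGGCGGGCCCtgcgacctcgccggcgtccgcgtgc

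The NF-kappaB motif is loose, and it occurred in 65.3% of the 75 genes, beside 53.5% of the 27025 genes in the promoter table. It was present in 2 of 3 risen genes and in 2 of 4 fallen ones. The antioxidant response element (TGACNNNGC, either strand) occurred in 21.3% of the 75 genes and in 14.0% of all genes. Of the 34 proteasome genes with a window, 6 held it (17.6%), namely Psmb5, Psmb6, Psmc6, Psmd12, Psmd9 and Psme4. The AP-1 motif (TGANTCA) occurred in 8.0% and 8.97%, the interferon-stimulated response element in 6.67% and 3.99%, the cyclic AMP response element in 4.0% and 2.03%, and the serum response element in 1.33% and 1.81%. These matches are descriptions of the printed windows and say nothing of binding.

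The proteasome genes stayed close to 0. Their means ran from -0.11 to 0.27 with a median of -0.01 (-0.0094), and the 95% interval of each of the 35 lay within 0.5 of 0. That was also so for 94.1% of all genes. In the 20S core 0 of 15 genes were called with limma, and 0 of 15 had an unadjusted p under 0.05, where 27.0% of all genes did. In the 19S particle 1 of 17 was called.

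**Figure D2:**
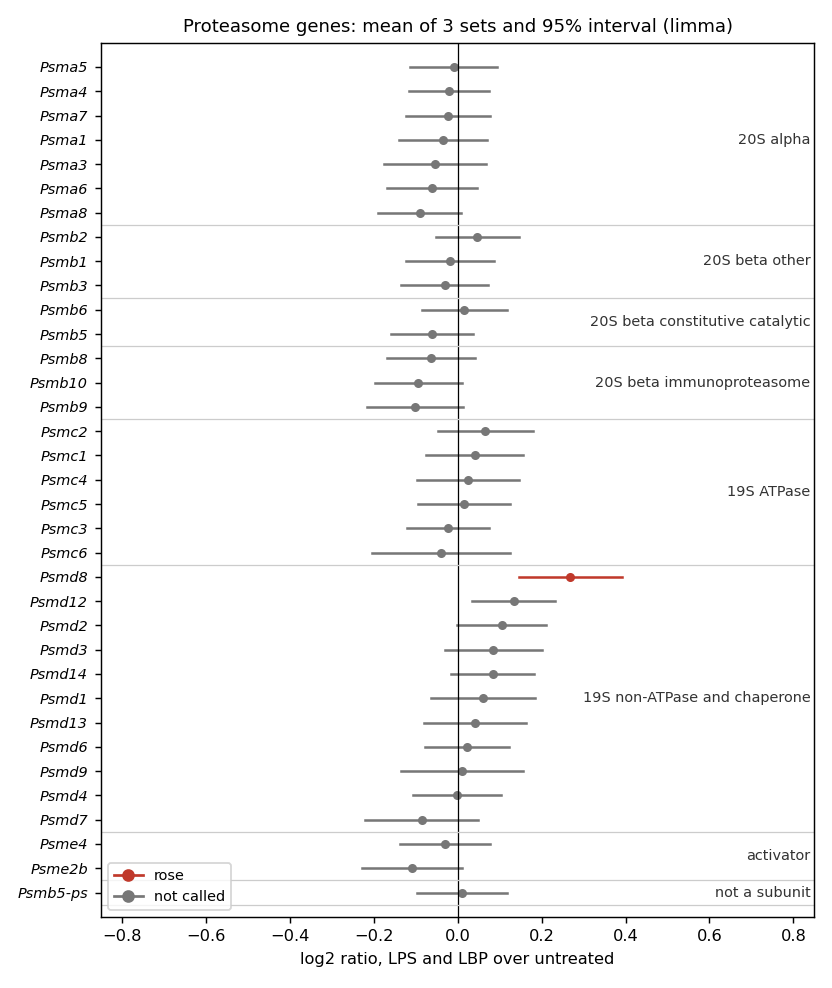
Mean log2 ratio of treated over untreated RNA (horizontal axis) for the 35 proteasome genes tested, grouped by role, with points for the mean of 3 sets and lines for the 95% limma interval. Psmd8 at 0.27 is the only one drawn as risen, and every interval lies inside -0.5 to 0.5.

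The alpha subunits form the outer rings and the gate of the core. All 7 tested (the array's alpha genes other than Psma2) had negative means, from -0.09 for the testis-type subunit Psma8 to -0.01 for Psma5. The order of these 7 is within their spread, as the intervals all include 0. Psma8 is the one with a negative ratio on all 6 arrays, and its adjusted p was 0.215. Of the beta subunits without a catalytic role, Psmb2 averaged 0.05 ± 0.03, Psmb1 -0.02 and Psmb3 -0.03.

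The catalytic beta subunits come as a constitutive set and an interferon-inducible set, the latter making the immunoproteasome. Psmb5, the constitutive chymotrypsin-like subunit, read -0.06, -0.09 and -0.08 in Cy5 and -0.01, -0.09 and -0.04 in Cy3. All 6 values are below 0 yet within 0.1 of it, with a mean of -0.06 ± 0.03 (adjusted p = 0.387). Psmb6, another constitutive catalytic subunit, averaged 0.02 ± 0.04. Of the immunoproteasome subunits, Psmb8 averaged -0.06 ± 0.05 (95% interval -0.17 to 0.04), Psmb9 -0.10 ± 0.08 (-0.22 to 0.01) and Psmb10 -0.09 ± 0.05 (-0.20 to 0.01). Psmb8 was above 0 on 2 arrays, and Psmb9 and Psmb10 on 1 array each. None of the 3 was called, and the upper ends of their intervals lie at or below 0.04. Those intervals are of set averages, in which the orientations are joined. By orientation Psmb8 averaged 0.04 in Cy5 and -0.16 in Cy3, and Psmb9 0.01 and -0.21. Psmb10 went the other way, with -0.15 in Cy5 and -0.03 in Cy3.

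In the base of the 19S particle the 6 ATPases (Psmc1 to Psmc6), the motors that unfold substrates, ran from -0.04 for Psmc6 to 0.07 for Psmc2, and 0 of 6 were called with limma (0 of 6 at an unadjusted p under 0.05). The remaining 19S genes tended higher than the core: 9 of 11 means were positive, with a median of 0.06, beside 2 of 15 and a median of -0.04 in the 20S core. That difference between the 2 parts of the particle was not tested.

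Psmd8, a subunit of the lid of the 19S particle, was the proteasome gene that rose. It read 0.26, 0.31 and 0.41 where treated RNA was in Cy5 and 0.07, 0.40 and 0.17 in Cy3 (sets 1, 2 and 3). All 6 arrays were above 0, the Cy3 arrays spreading more widely and overlapping those in Cy5, and the mean was 0.27 ± 0.10, or 1.20-fold (limma, adjusted p = 0.0202). The call did not hold without set 2 (0.23, adjusted p = 0.0597), without set 3 (0.26, adjusted p = 0.0632) or on the Cy3 arrays alone (0.21, adjusted p = 0.182), and the proteasome genes then had 0 calls.

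Psmd12, another lid subunit, was positive on all 6 arrays, from 0.03 to 0.20, and averaged 0.13 ± 0.03 (adjusted p = 0.0892). Psmd2, a base subunit that docks ubiquitin carriers, averaged 0.10 ± 0.06 and Psmd14, the deubiquitinase of the lid, 0.08 ± 0.04. The readings of Psmd2 were 0.16, 0.42 and 0.13 in Cy5 against 0.01, -0.08 and -0.01 in Cy3, so the positive mean came from the Cy5 arrays. The activator genes Psme4 (-0.03 ± 0.06) and Psme2b (-0.11 ± 0.09, the lowest proteasome mean) were not called. Psme2b is a near copy of Psme2, and a probe may not tell them apart.

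Many proteasome readings differed between the dye orientations by more than their mean differed from 0. The 7 alpha genes had a median of -0.11 with treated RNA in Cy5 and of 0.05 in Cy3, and the 6 ATPases had -0.07 and 0.13. Psmb2, a structural beta subunit, read -0.16, -0.44 and -0.09 in Cy5 and 0.18, 0.58 and 0.21 in Cy3. The dye effect, by which the Cy5 arrays lay above or below the mean of both orientations, was -0.28 for Psmb2 (limma, adjusted p = 0.158) and 0.26 for Psmd7 (adjusted p = 0.189). Among the 81 genes, 13 had every Cy5 array opposite in sign to every Cy3 array, beside 13.7% of all genes. They were 5 of the 35 proteasome genes, 5 of the 23 Ube2 genes and 3 of the 23 Usp genes. In the dye test 0 of the 81 were called with limma, and 0.06% of all genes were called. An unadjusted p under 0.05 was reached by 32 of the 81, where 27.8% of all genes did so. These were 8 of the 35 proteasome genes, 11 of the 23 Ube2 genes and 13 of the 23 Usp genes. The largest family thus had the fewest, and the dye dependence was not particular to it. The proteasome genes with opposed orientations were Psma1, Psma4, Psmb2, Psmc3 and Psmd14, all lower in Cy5.

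**Figure D3:**
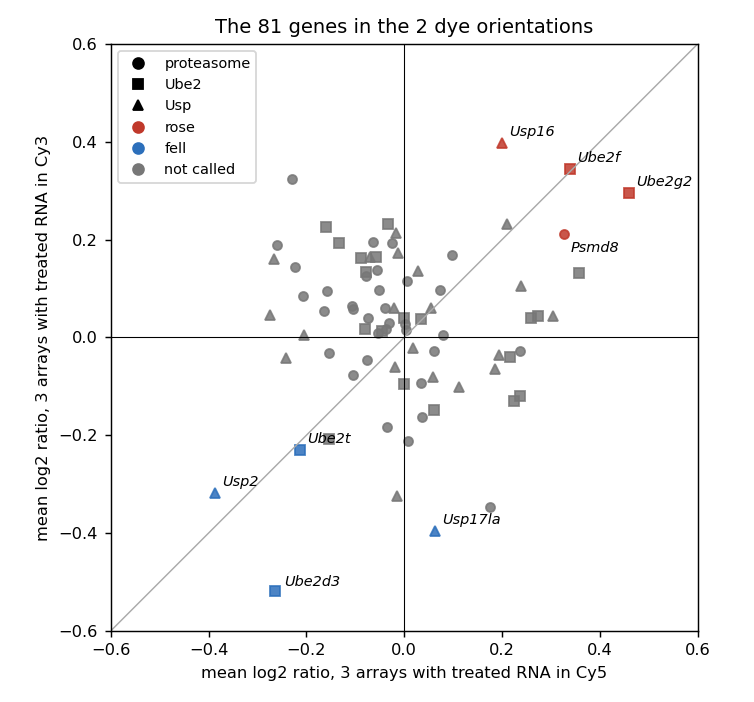
Mean log2 ratio over the 3 arrays with treated RNA in Cy5 (horizontal axis) against that over the 3 arrays with treated RNA in Cy3 (vertical axis) for the 81 genes, with symbol shape for the family, colour for the call and a line of equal values. Ube2f, Usp2 and Ube2t lie near the line, Usp17la lies at 0.06 and -0.40, and many uncalled proteasome genes lie at negative Cy5 and positive Cy3 values.

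Ube2 genes, which encode the conjugating enzymes, moved in both directions, with 2 that rose and 2 that fell among 23 and a median of 0.04. Ube2f and Ube2g2 rose, and Ube2d3 and Ube2t fell. The 95% interval lay within 0.5 of 0 for 20 of the 23, and the exceptions were Ube2d3, Ube2o and Ube2v1.

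**Figure D4:**
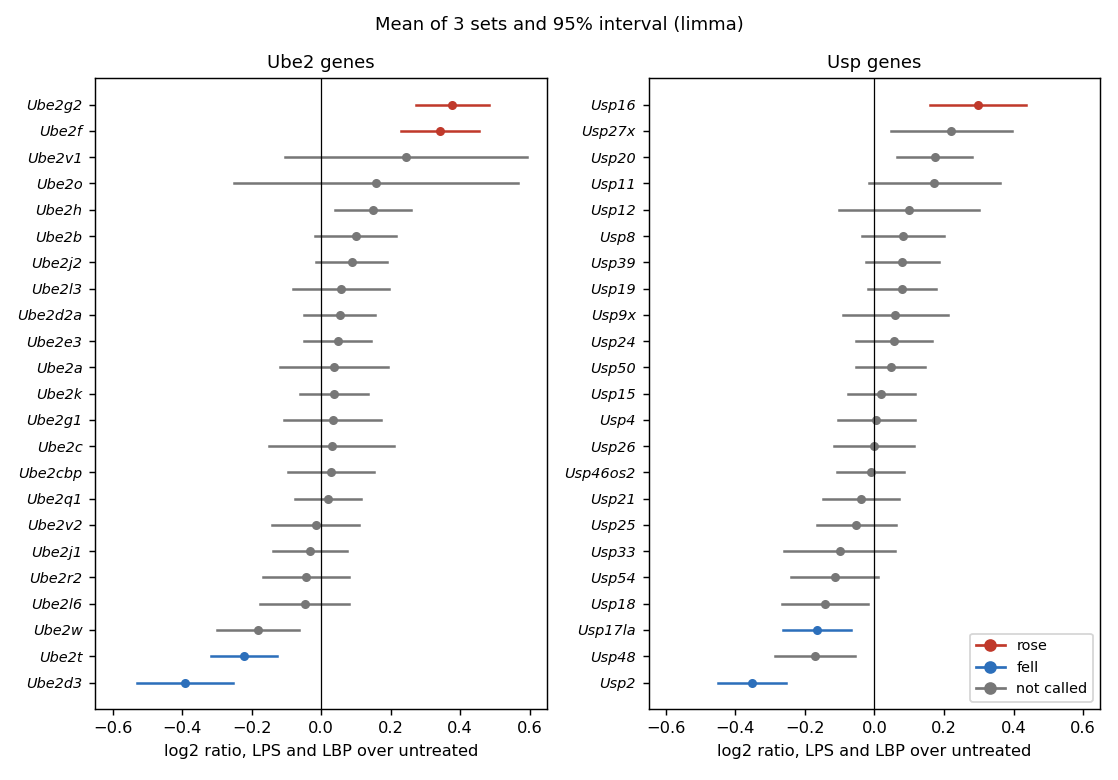
Mean log2 ratio of treated over untreated RNA (horizontal axis) for the 23 Ube2 and the 23 Usp genes tested, ordered by mean, with points for the mean of 3 sets and lines for the 95% limma interval. Ube2g2, Ube2f and Usp16 are drawn as risen and Ube2d3, Ube2t, Usp2 and Usp17la as fallen, while the widest intervals are those of Ube2o and Ube2v1.

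Ube2f is a conjugating enzyme for NEDD8, the ubiquitin-like protein that activates cullin ligases. On the Cy5 arrays it read 0.28, 0.45 and 0.28, and on the Cy3 arrays 0.32, 0.40 and 0.31. The orientations overlap fully, with set 2 the highest in both, and the mean was 0.34 ± 0.07, or 1.27-fold (limma, adjusted p = 0.00572). It was called under each of the 12 alternatives tried, with means from 0.30 to 0.36.

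Other genes of the NEDD8 branch, from the list of ubiquitin pathway genes, did not share this direction. Senp8, the protease that matures NEDD8 and removes it, fell by 0.45 ± 0.07 (limma, adjusted p = 0.00182). Its arrays read -0.62, -0.72 and -0.66 in Cy5 and -0.23, -0.07 and -0.40 in Cy3, all below 0 but without overlap between orientations, and the Cy3 arrays alone gave no call (-0.23, adjusted p = 0.146). Nedd8 itself averaged -0.06 ± 0.11 and Uba3, a subunit of its activating enzyme, -0.06 ± 0.11.

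Ube2g2 is a conjugating enzyme of the pathway that degrades misfolded proteins of the endoplasmic reticulum. Averaged over its probes it read 0.48, 0.42 and 0.48 in Cy5 and 0.31, 0.21 and 0.37 in Cy3, all above 0 and higher in Cy5. The mean was 0.38 ± 0.06 (limma, adjusted p = 0.00309), and the call was lost on the Cy3 arrays alone (0.30, adjusted p = 0.0512). The 2 probes disagreed. One averaged 0.69 ± 0.13 (adjusted p = 0.000971 in the fit of probes), from 0.50 to 0.88 over the arrays, and the other 0.06 ± 0.05 (adjusted p = 0.429), from -0.08 to 0.18. The mean of the gene therefore stands for neither probe.

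**Figure D5:**
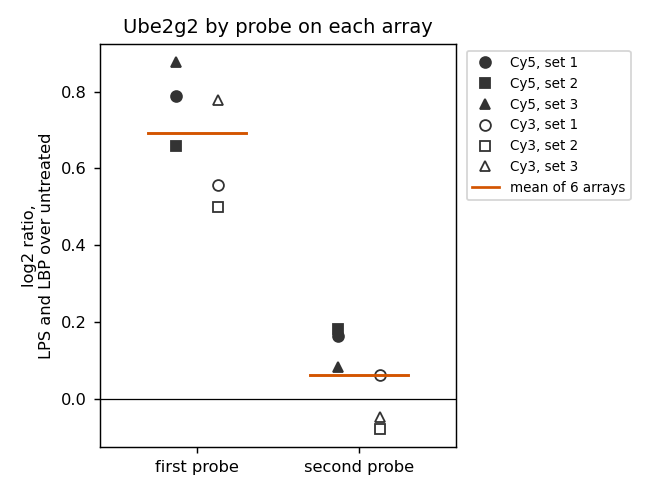
Log2 ratio of treated over untreated RNA (vertical axis) on each array for the 2 probes annotated to Ube2g2, with symbols for the dye of the treated RNA and the set and a bar for the mean. The first probe lies between 0.50 and 0.88 on all 6 arrays, and the second between -0.08 and 0.18.

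The other conjugating enzymes of that degradation pathway had means near 0: Ube2j1 averaged -0.03 ± 0.06, Ube2j2 0.09 ± 0.05 over 3 probes and Ube2g1 0.03 ± 0.12. None was called, and their intervals reach from -0.14 to 0.19 at most. Ube2j2 and Ube2g1 had opposite signs in the 2 orientations. Ube2j2 averaged 0.22 in Cy5 and -0.04 in Cy3, and Ube2g1 -0.16 in Cy5 and 0.23 in Cy3.

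Ube2d3 belongs to the D family, E2 enzymes that work with many ligases. It read -0.21, -0.23 and -0.35 in Cy5 and -0.32, -0.57 and -0.67 in Cy3. All 6 arrays are below 0, and the Cy3 readings are lower in each set. It fell by 0.39 ± 0.12, or 1.31-fold (limma, adjusted p = 0.00743), and was called under each of the 12 alternatives, at -0.26 on the Cy5 arrays alone and -0.52 on the Cy3 arrays alone. Its relative Ube2d2a averaged 0.05 ± 0.04 (adjusted p = 0.466), with opposite signs in the 2 orientations. The D family genes are close in sequence, and the probes may share signal.

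Ube2t, the conjugating enzyme of the Fanconi anaemia DNA repair pathway, fell by 0.22 ± 0.01 (limma, adjusted p = 0.0158). Its arrays read -0.15, -0.36 and -0.14 in Cy5 and -0.27, -0.11 and -0.31 in Cy3, a wider spread than that of the set averages, because in each set a lower array was averaged with a higher one. The call did not hold without set 1 (-0.23, adjusted p = 0.109) or set 2 (-0.22, adjusted p = 0.0543), nor on either orientation alone (-0.21 in Cy5, -0.23 in Cy3), and it held under 6 of the 12 alternatives. Ube2c, the conjugating enzyme of the anaphase-promoting complex and a gene of dividing cells, averaged 0.03 ± 0.19 and was not called. Ube2w, which attaches ubiquitin to the amino terminus of proteins, was negative on all 6 arrays, from -0.31 to -0.08, but missed the threshold (-0.18 ± 0.08, adjusted p = 0.0601).

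Ube2v1, the non-catalytic partner of Ube2n in building signalling chains of ubiquitin, varied by set. It read 0.20, 0.11 and 0.76 in Cy5 and 0.11, -0.34 and 0.63 in Cy3, so both arrays of set 3 were the highest of their orientation. Its mean was 0.24 ± 0.41 (95% interval -0.10 to 0.59, adjusted p = 0.333). Ube2o, an enzyme that acts as conjugating enzyme and ligase in one, had the same order of sets, with set averages of 0.06, -0.27 and 0.69, a mean of 0.16 ± 0.49 and the widest interval of the 81 genes (-0.25 to 0.57). The sets of both genes thus spread on either side of 0. Ube2v2, the paralog of Ube2v1, averaged -0.02 ± 0.10 over 2 probes with opposed dye patterns. One read -0.01, -0.24 and -0.48 in Cy5 and 0.43, 0.45 and -0.11 in Cy3. The other read 0.12, 0.07 and 0.26 in Cy5 and -0.34, -0.16 and -0.20 in Cy3.

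Ube2l6, the conjugating enzyme for the interferon-induced modifier ISG15, averaged -0.05 ± 0.11 (95% interval -0.18 to 0.08). Usp18, which takes ISG15 off again, read -0.31, -0.15 and -0.26 in Cy5 and -0.12, 0.09 and -0.10 in Cy3, 5 of 6 below 0, with a mean of -0.14 ± 0.10 (adjusted p = 0.136). Uba7, the activating enzyme of the same branch, averaged -0.02 ± 0.10. Isg15 rose by 0.56 ± 0.36 (limma, adjusted p = 0.0389), its set averages being 0.98, 0.36 and 0.33 and its mean without set 1 being 0.35. It was not called on the Cy5 arrays alone (0.48) or the Cy3 arrays alone (0.63), nor with zeros kept (adjusted p = 0.0836), with incomplete probes (adjusted p = 0.13) or after quantile normalization (adjusted p = 0.0517).

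Usp genes numbered 23 tested, of which 1 rose and 2 fell, with a median of 0.02. All 23 intervals lay within 0.5 of 0. Usp2 had the lowest adjusted p of the 81 genes. This deubiquitinase with substrates in the cell cycle and the circadian clock read -0.37, -0.40 and -0.39 in Cy5 and -0.40, -0.29 and -0.27 in Cy3. The arrays of both orientations overlap and none is above -0.27. It fell by 0.35 ± 0.03, or 1.28-fold (limma, adjusted p = 0.00301), and was called under each of the 12 alternatives, with means from -0.39 to -0.32.

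Usp16, which removes ubiquitin from histone H2A, rose by 0.30 ± 0.12, or 1.23-fold (limma, adjusted p = 0.0205). It read 0.29, 0.02 and 0.29 in Cy5 and 0.47, 0.295 and 0.43 in Cy3. All 6 arrays are above 0, and the array of set 2 is the lowest in both orientations. The call did not hold without set 1 (0.26, adjusted p = 0.133), without set 3 (0.27, adjusted p = 0.0693) or on the Cy5 arrays alone (0.20, adjusted p = 0.134). Without set 1 or set 3, 1 Usp gene was called in place of 3.

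Usp17la, a member of a multicopy family of small deubiquitinases first known from cytokine-stimulated lymphocytes, passed the threshold at -0.17 ± 0.03 (limma, adjusted p = 0.0462). Its arrays read 0.03, 0.31 and -0.15 in Cy5 and -0.37, -0.69 and -0.125 in Cy3, 4 of 6 below 0. Its small SD is that of the set averages: in sets 1 and 2 a higher array was averaged with a much lower one, while the arrays of set 3 lay close together. Over the 6 arrays without set averages the adjusted p was 0.254, and the gene was called under 1 of the 12 alternatives. Without set 1, 2 or 3 it was at -0.16, -0.15 and -0.18 with no call, and on the Cy5 arrays alone it averaged 0.06 (adjusted p = 0.678). Near-identical copies of this gene could share its signal.

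Several Usp genes lay close to the threshold. Usp20 averaged 0.17 ± 0.06 (adjusted p = 0.0537), with 0.22, 0.34 and 0.35 in Cy5 and 0.07, -0.08 and 0.14 in Cy3, so the Cy5 arrays were all higher than the Cy3 arrays. Usp48 averaged -0.17 ± 0.08 (adjusted p = 0.0694), with -0.02 in Cy5 and -0.32 in Cy3. Usp27x averaged 0.22 ± 0.18 (adjusted p = 0.103) and was called without set 2 (0.32, adjusted p = 0.0117), whose average was 0.02. Usp12 (0.10 ± 0.22) and Usp25 (-0.05 ± 0.08) were not called, and every Cy5 array of Usp25 was negative while every Cy3 array was positive.

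The 13 genes without a ratio on all arrays were Psma2, Psmb4, Psmb7, Psmc3ip, Psmd10, Psme1, Psme3, Ube2e1, Ube2n, Usp10, Usp14, Usp17lc and Usp29. Psme1, a subunit of the interferon-inducible proteasome activator, and Usp10 were listed at 0 on all 6 arrays, which was read as missing. When incomplete probes were included, 9 of the 13 could be fitted, and 0 of the 9 were called with limma, with 2 at an unadjusted p under 0.05. In that fit a set lacking 1 orientation was represented by the other alone, so a dye effect in it did not cancel. Psmb7, the remaining constitutive catalytic subunit, gave -0.06 (adjusted p = 0.585), and Usp14, a deubiquitinase bound to the proteasome, 0.04 (adjusted p = 0.711). Psme3, a nuclear activator subunit, gave 0.16 (adjusted p = 0.354) and Psmd10, an assembly chaperone of the 19S base, 0.13 (adjusted p = 0.173). The 2 probes of Psmd10 disagreed, averaging 0.25 and 0.03 over 5 arrays each. Ube2n, the catalytic partner of Ube2v1, read 0.32 and 0.55 in Cy5 and -0.42, -0.32 and -0.20 in Cy3. Its arrays thus split by dye, and the fit gave -0.08 (adjusted p = 0.742), with set 1 given by its Cy3 array alone.

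Around these families stands a list of 57 other genes of the ubiquitin system, of which 53 were tested. It covers activating enzymes, ubiquitin-like modifiers, other deubiquitinases, assembly factors and regulators of the proteasome, and the supply of class I peptides. Of the 53, 4 rose and 2 fell (11.3%), near the 13.2% of all genes, and their median was 0.00. In the limma fit 0 of 4 activating enzymes and 0 of 5 class I genes were called. At an unadjusted p under 0.05 there were 0 and 1. The class I gene was Tapbp, which averaged 0.36 ± 0.29 (limma, adjusted p = 0.0735), with 5 arrays above 0 and 1 below. Tap1, the peptide transporter, averaged -0.05 ± 0.08, B2m 0.03, Erap1 0.03 and Tap2 -0.0027.

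Proteases that remove ubiquitin or a ubiquitin-like protein, other than the Usp genes, had 4 calls among 20 tested, beside 13.2% of all genes. They were the deubiquitinase genes Tnfaip3 and Otud1, and Senp2 and Senp8, whose products act on SUMO and NEDD8. Tnfaip3 (A20), the feedback inhibitor of NF-kappaB signalling, read 1.52, 2.15 and 1.93 in Cy5 and 1.30, 1.79 and 1.53 in Cy3. Its lowest array exceeds every reading of the 81 genes, and it rose by 1.70 ± 0.28, or 3.25-fold (limma, adjusted p = 0.000207). Otud1, of the ovarian tumour family of deubiquitinases, read -0.81, -0.33 and -1.07 in Cy5 and -0.68, -0.59 and -0.92 in Cy3, with set 2 the nearest to 0 in both orientations. It fell by 0.73 ± 0.27, or 1.66-fold (limma, adjusted p = 0.00508).

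Senp2, a protease for the modifier SUMO, rose by 0.21 ± 0.01 (limma, adjusted p = 0.0179) but was not called without set 1 (0.22, adjusted p = 0.12) or set 2 (0.21, adjusted p = 0.0609). It read 0.12, 0.15 and 0.10 in Cy5 and 0.30, 0.31 and 0.32 in Cy3, without overlap between orientations, and was not called on the Cy5 arrays alone (0.12, adjusted p = 0.172). Nfe2l1, a transcription factor known to drive proteasome genes when the proteasome is impaired, read 0.16, 0.38 and 0.35 in Cy5 and 0.32, 0.22 and 0.54 in Cy3. The orientations overlap, all 6 arrays are above 0, and it rose by 0.33 ± 0.11 (limma, adjusted p = 0.0109), though not on the Cy3 arrays alone (0.36, adjusted p = 0.0645). Its relative Nfe2l2 averaged -0.08 and was not called (adjusted p = 0.393).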

How the data were processed

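Total RNA of treated and untreated RAW 264.7 cells (RAW 264.4 in part of the labels) was compared on 6 two-colour arrays. The deposited table holds 1 log2 ratio per probe and array; the authors' normalization, background correction and log base are not given in the sources used here, and the base was read from the values. Ratios of the arrays whose Cy3 sample was treated took the factor -1, exact 0 was taken as missing (8.99% to 23.9% of ratios per array), and the complete probes of a gene (6 ratios, 1 symbol) were averaged. This left 8331 genes. Array medians lay between 0.0043 and 0.0159 before turning.

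The arrays sharing a set number were averaged, which treats them as a pair although their deviations gave no support for one, and the 3 set averages were tested against 0, two-sided, with limma 3.58.1 in R 4.3.3 (Benjamini-Hochberg over all genes, prior degrees of freedom 4.08). Precision is limited by there being 6 arrays. The test was checked on simulated set averages drawn independently, without dye effects or pairs of arrays, so that check cannot speak to the pairing. The genes and lists were chosen with earlier results of these data known. Named are every called member, the 3 highest and 3 lowest means of each family, a list of well-known members, and called genes of the pathway list; other genes named were chosen after their values were seen. There were 12 alternatives: each set left out, each orientation alone, 6 arrays with and without the set as a block, zeros kept, incomplete probes, 2 normalizations and another probe rule. The closing section gives the main changes in counts and calls.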

Additional observations from a re-analysis of the deposited data

How the results depend on the processing

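The 8 called genes of the 3 families were recomputed under 12 alternatives, and Ube2d3, Ube2f and Usp2 were called in all of them. Usp17la turned to 0.063 on the Cy5 arrays alone. Over all genes the 1097 calls became 649 on the Cy3 arrays alone, 598 with incomplete probes and 499 to 832 with 1 set left out (499 without set 1). Proteasome calls numbered 0 on the Cy3 arrays alone and 0 with incomplete probes, 2 with no replicate block over 6 arrays, and 0 to 1 with 1 set left out. Ube2 calls were 2 on the Cy3 arrays alone and 3 to 4 with 1 set left out; Usp calls were 1 with incomplete probes and 1 to 3 with 1 set left out. Calls in the pathway list went from 6 to 4 on the Cy3 arrays alone and to 5 on the Cy5 arrays alone. They numbered 6 to 8 with 1 set left out, 8 with no replicate block and 9 with a block. With incomplete probes 4 were called, 3 of them among the 6, and Nfe2l1 (adjusted p = 0.0511), Senp2 (0.0584) and Isg15 (0.13) were lost. The dye test called 5 genes, 20 with incomplete probes and 0 to 24 with 1 set left out. The cause of these changes was not tested. Set averages pair arrays by number, yet arrays sharing a number did not deviate together (correlations 0.0056, -0.258 and -0.0636), so SDs and p-values depend on a pairing that the data do not bear out. Over 6 arrays with no replicate block 1439 genes were called, 1058 of them among the 1097; Psmd12, Ube2w, Usp20 and Usp48 were gained and Usp17la was lost. With a replicate block 1283 were called, 926 of them among the 1097. Of the 5 Ube2 genes then called 3 were among the original 4, Ube2t being lost (adjusted p = 0.0719) and Ube2w (0.0239) and Ube2v1 (0.0449) gained. Of the 4 Usp genes 2 were among the original 3, Usp17la being lost (0.387) and Usp18 (0.0468) and Usp11 gained. Zeros kept gave 805 calls over all genes, and zeros kept, quantile normalization and the probe of largest mean each gave 2 Usp calls, without Usp17la. The Cy5 arrays alone gave 1035 calls, 714 of them among the 1097, with 3 Ube2 and 2 Usp genes. Subtracting array medians changed no call among the 8 genes. Signal over background cannot be read from ratios.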

Other observations

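Sqstm1, which encodes the ubiquitin-binding autophagy receptor p62, had ratios on 4 of the 6 arrays and was chosen here after its values were seen. The Cy5 arrays gave 1.59 and 1.19, and the Cy3 arrays 0.81 and 0.87. All 4 are above 0, and with incomplete probes included its mean was 1.14 (limma, adjusted p = 0.0312). Set 1 entered that fit by its Cy3 array alone and set 2 by its Cy5 array alone, so a dye effect in them did not cancel.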
